A study of Rattus norvegicus with 18 samples.

Results

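The genes described here encode the motors that carry cargo along axonal microtubules and the tubulins those microtubules are built from. Members were all genes whose platform symbol begins with Kif, Klc, Dync, Dynl, Dctn, Tuba, Tubb or Tubg on a probe set that names only that gene, and a gene with several probe sets was represented by the one with the highest mean signal. The rule found 55 genes on 71 probe sets, of 10411 genes on the 12789 probe sets of the array that name 1 gene. Of these 55, 42 passed the filter on low signals and entered the tests, and the other 13 are described at the end with their signals only. By role, the 55 comprised 6 kinesin-1 heavy and light chains, 4 kinesin-2 genes, 3 kinesin-3 motors, 6 mitotic kinesins, 5 other kinesins, the kinesin binding protein Kifbp, 5 chains of cytoplasmic dynein-1, 4 dynein light chains, 3 dynein-2 chains, 5 dynactin subunits, 2 alpha tubulins, 6 beta tubulins, and 5 genes of gamma tubulin and its ring complex. Kif5c, Kif1a, Dynll1, Tuba1a, Tuba1b and Tubb4a, which are prominent in neurons, had no probe set that names them alone and were not analysed here, and 7 probe sets shared between genes (among them that of Tuba1a, Tuba1b and Tuba1c) were left out for the same reason.

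RNA came from F344BN rats aged 6, 18 or 30 months. Each age gave 3 arrays of the oculomotor nucleus and 3 of the spinal cord, 18 arrays in 6 groups, and each array carried total RNA pooled from 4 animals on an Affymetrix RA230 chip. No treatment or genetic change is named for any group, and the 6-month animals are the baseline of the study's age comparisons. The oculomotor nucleus is a cluster of midbrain motor neurons that moves the eye, while the cord holds the motor neurons of limb and trunk together with long fibre tracts. Pools hide the animal to animal spread. An adjusted p below sets a difference of group means against the spread of pooled samples, shared by the 6 groups, and not against that of animals. Both tissues are mixtures of cells, and in such samples fewer cells of a type and less RNA per cell cannot be told apart.

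An axon is filled with microtubules, hollow polymers of alpha and beta tubulin whose plus ends point away from the cell body. Most kinesins walk toward the plus end and bring vesicles, mitochondria and new tubulin to the terminal, whereas cytoplasmic dynein, with its cofactor dynactin, walks back toward the cell body with endosomes and worn organelles. Motor neurons have some of the longest axons of the body, and mutations of several of these genes, Kif5a, Dctn1, Dync1h1 and Tuba4a among them, cause diseases of motor neurons or of long axons in people.

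The promoters of 5 members that entered the tests are shown first. These are the 4 tested genes whose tissues did not overlap, and Tubb2a, the neighbour of Tubb2b that differed in the other direction. Each is a window of 300 bases, from 250 before to 50 after the annotated start, taken from RefSeq on build GRCr8 and written 5′ to 3′ on the gene's strand. Capitals mark the motifs searched on both strands, in either orientation. The first was CCAAT, the core of the box that NF-Y binds. The second was GGGCGG, the core of the GC box. Next came TATAAA, the TATA box, and the last was CACGTG, an E-box. None of these motifs overlapped another in the windows shown. The windows lie at chr17:30952836-30953135 on the plus strand for Tubb2b, chr17:31001936-31002235 on the plus strand for Tubb2a, chr9:84162535-84162834 on the minus strand for Tuba4a, chr6:32086629-32086928 on the plus strand for Kif3c and chr4:34819191-34819490 on the plus strand for Dync1i1.
Tubb2b: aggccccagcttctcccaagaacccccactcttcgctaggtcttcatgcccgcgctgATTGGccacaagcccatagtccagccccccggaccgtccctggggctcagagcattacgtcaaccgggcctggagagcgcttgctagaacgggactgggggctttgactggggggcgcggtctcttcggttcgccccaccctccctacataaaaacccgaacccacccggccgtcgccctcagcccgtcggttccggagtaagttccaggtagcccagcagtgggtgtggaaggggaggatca
Tubb2a: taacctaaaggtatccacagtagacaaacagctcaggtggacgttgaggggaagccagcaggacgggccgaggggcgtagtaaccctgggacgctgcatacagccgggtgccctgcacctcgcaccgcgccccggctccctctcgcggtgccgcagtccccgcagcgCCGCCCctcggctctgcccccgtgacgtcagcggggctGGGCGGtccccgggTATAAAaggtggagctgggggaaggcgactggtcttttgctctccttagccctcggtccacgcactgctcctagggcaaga
Tuba4a: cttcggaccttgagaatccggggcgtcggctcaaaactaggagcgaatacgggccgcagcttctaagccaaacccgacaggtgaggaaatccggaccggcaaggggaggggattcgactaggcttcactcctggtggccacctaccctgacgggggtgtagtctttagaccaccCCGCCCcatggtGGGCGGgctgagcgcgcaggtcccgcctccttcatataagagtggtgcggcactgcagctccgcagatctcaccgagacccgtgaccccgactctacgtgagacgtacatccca
Kif3c: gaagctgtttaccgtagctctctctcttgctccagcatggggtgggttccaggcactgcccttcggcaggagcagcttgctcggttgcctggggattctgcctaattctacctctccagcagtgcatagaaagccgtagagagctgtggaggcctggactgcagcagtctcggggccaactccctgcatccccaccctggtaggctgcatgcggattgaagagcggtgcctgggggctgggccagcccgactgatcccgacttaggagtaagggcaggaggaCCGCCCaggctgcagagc
Dync1i1: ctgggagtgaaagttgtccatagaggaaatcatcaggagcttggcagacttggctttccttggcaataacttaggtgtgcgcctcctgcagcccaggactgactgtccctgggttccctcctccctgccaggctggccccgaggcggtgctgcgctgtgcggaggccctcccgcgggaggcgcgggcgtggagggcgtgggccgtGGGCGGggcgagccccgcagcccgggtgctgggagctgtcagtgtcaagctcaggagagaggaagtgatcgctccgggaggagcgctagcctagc
The Tubb2b window held 1 CCAAT box and none of the other motifs, and the Tubb2a window held 2 GGGCGG boxes and a TATAAA box whose first base lies at -31. Tuba4a had 2 GGGCGG boxes, and Kif3c and Dync1i1 had 1 each, that of Kif3c at 33 within the transcribed part. Tubb2b and Tubb2a lie on chromosome 17 with 1 protein-coding gene between them, and their windows matched at 149 of 260 aligned bases (57.3%), gaps left out. Against the window of Tubb6, on chromosome 18 and not printed here, the same alignment gave a similar 56.2% for Tubb2b and 54.5% for Tubb2a. Among the 48 members with a RefSeq promoter, 29 (60.4%) held GGGCGG, 21 (43.8%) CCAAT, 7 (14.6%) TATAAA and 3 (6.25%) CACGTG. Over all 33469 promoters of the same length the shares were 33.1%, 37.5%, 14.2% and 6.42%. These were not filtered by gene type or reduced to 1 per gene, as the members were, so the shares are not of like sets. A match describes letters only, and binding of a factor was not measured.

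Between the tissues, the oculomotor nucleus had more RNA of the neuronal kinesin-2 motor Kif3c, the dynein intermediate chain Dync1i1 and the alpha tubulin Tuba4a, and less of the beta tubulin Tubb2b, with differences of 1.22-fold to 1.42-fold. The comparison asked whether the nucleus and the cord differ at the mean of the 3 ages, with log2 differences given as nucleus minus cord and 9 arrays a side. Of the 42 members tested, 13 (31%) passed limma's moderated test, 9 higher and 4 lower in the nucleus. Among the 9 are Dync2i1, which passed the filter only through its nucleus signals, and Tubb5, whose direction differs between its probe sets. Among all 9482 probe sets tested, 47.2% passed, 23.6% in each direction, so the members' share lay below that of the array as a whole. Members had a median difference of 0.12 and a median size of 0.15 on the log2 scale, against 0.01 and 0.19 over all probe sets. Signals of 4 tested members (9.52%) did not overlap between the 9 nucleus and the 9 cord arrays, against 14.2% of all probe sets.

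**Figure D1:**
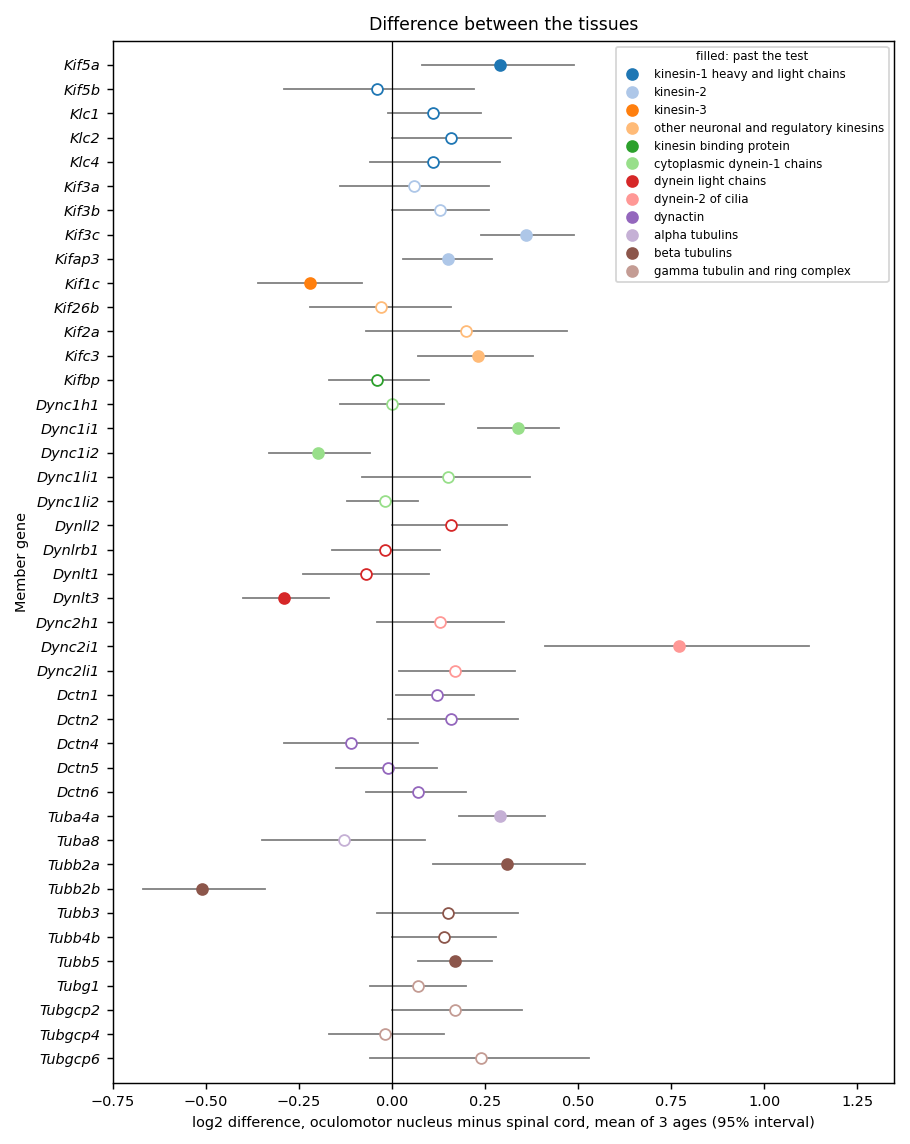
Log2 difference between oculomotor nucleus and spinal cord (x axis) for each of the 42 members tested (y axis, coloured by role), with its 95% interval. Filled points, 13 of 42, passed the test; most points lie within 0.5 of 0, with Dync2i1 at 0.77 to the right and Tubb2b at -0.51 to the left.

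Kinesin-1, the main motor of fast transport toward the terminal, consists of Kif5 heavy chains and Klc light chains, and 1 of its 5 tested members differed. Kif5a, the neuronal heavy chain, was higher in the nucleus by 0.29 (SE 0.10, 1.22-fold, adjusted p = 0.0221). Its signals were 2253, 2504 and 2432 (6 months), 2874, 2961 and 2304 (18 months) and 2758, 2492 and 1957 (30 months) in the nucleus. In the cord they were 1831, 2113 and 2771, then 1590, 2616 and 1777, then 2064, 1953 and 1884 at the same ages. The tissues overlapped, since the cord arrays reached 2771 and the lowest nucleus array stood at 1957. Without nucleus replicate 1 at 30 months, cord replicate 1 at 6 months or cord replicate 1 at 18 months the difference was 0.24 or 0.25 and did not pass (adjusted p = 0.0504 to 0.0543). A second probe set of Kif5a gave 0.28 (adjusted p = 0.0025). Kif5b, the heavy chain that most cell types use, had group means of 1941 ± 58.7, 2102 ± 333 and 2297 ± 470 in the nucleus and 1785 ± 353, 2443 ± 514 and 2406 ± 844 in the cord at 6, 18 and 30 months (mean ± SD, n = 3 arrays, as in all group means below), a difference of -0.04 (95% interval -0.29 to 0.22).

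Klc1, the main neuronal light chain, had 4222 ± 117, 4065 ± 359 and 4239 ± 302 in the nucleus and 3654 ± 348, 3966 ± 471 and 3993 ± 349 in the cord by age. Its difference of 0.11 did not pass the test (adjusted p = 0.133), and a second probe set gave 0.04 (adjusted p = 0.711). The dimmest Klc1 probe set above the filter went the other way and passed, at -0.48 (SE 0.08, adjusted p = 4.16e-05). On it the nucleus read 324.1, 360.1 and 362.6 (6 months), 358.3, 410.3 and 370.7 (18 months) and 415.3, 541.3 and 529.1 (30 months). The cord read 525.8, 683.7 and 647.5, then 577, 535.4 and 646.8, then 438.4, 488.6 and 559.3. The tissues were separate on this probe set at 6 and 18 months and overlapped at 30 months. Another Klc1 probe set, under the filter, read 7.5 to 69.4 in the nucleus and 9.8 to 58.3 in the cord and was not used. Klc1 is spliced at its 3′ end into several forms, and which of them each probe set reads was not tested. Klc2 and Klc4, the other light chains tested, differed by 0.16 and 0.11 without passing the test.

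**Figure D2:**
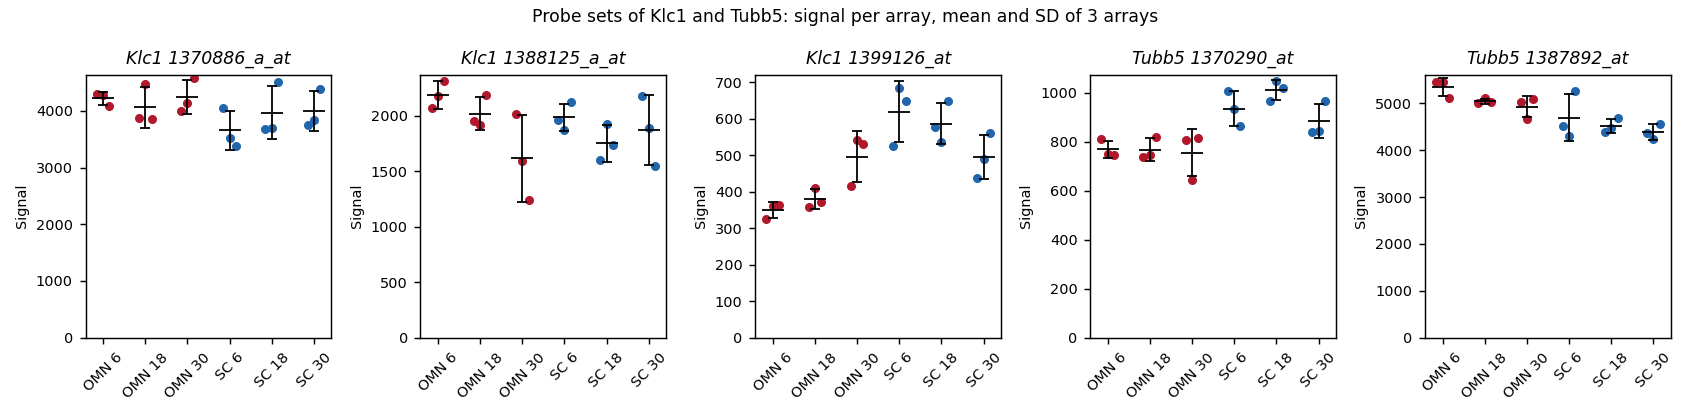
Signal (y axis, linear, from 0) on each array for the 3 probe sets of Klc1 and the 2 of Tubb5 that passed the filter, by tissue (OMN, oculomotor nucleus, red; SC, spinal cord, blue) and age in months (x axis), with the mean and SD of 3 arrays. The probe sets of each gene disagree: the dimmest of each gene is lower in the nucleus while the brightest is not, and since the y axes differ, levels are not compared between panels.

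Kinesin-2, which carries membrane precursors in axons and moves cargo in cilia, is a pair of motor subunits with the linker Kifap3, and 2 of its 4 members differed, both higher in the nucleus. Kif3c, a subunit found mainly in neurons, had signals of 1811, 1799 and 1945 (6 months), 1823, 1672 and 1812 (18 months) and 1815, 1978 and 1764 (30 months) in the nucleus. The cord had 1554, 1281 and 1480, then 1424, 1416 and 1247, then 1504, 1636 and 1274. Every nucleus array was above every cord array, by as little as 1672 against 1636, and the difference was 0.36 (SE 0.06, 1.29-fold, adjusted p = 4.97e-05). It passed the test at each age as well, with 0.37, 0.38 and 0.34 at 6, 18 and 30 months. These calls were lost at 6 months without nucleus replicate 3 or cord replicate 2 (adjusted p = 0.0545 and 0.0652), at 18 months without cord replicate 3 (0.0505) and at 30 months without nucleus replicate 2 or cord replicate 3 (0.0857 and 0.128), all of the age in question. The second probe set of the gene gave 0.54 (adjusted p = 0.00161). Kifap3 was higher by 0.15 (SE 0.06, 1.11-fold, adjusted p = 0.0411), the smallest difference that passed. The call was lost, with 0.13 to 0.15 and an adjusted p of 0.06 to 0.0855, without any one of these arrays: from the nucleus, 6-month replicates 2 and 3, 18-month replicates 1 and 3 and 30-month replicates 1 and 2, and from the cord, 6-month replicates 1 and 3 and replicate 3 of the later ages. Its second probe set gave 0.27 (adjusted p = 0.00628). Kif3a and Kif3b, the classical motor pair, differed by 0.06 (95% interval -0.14 to 0.26) and 0.13 (adjusted p = 0.0988). Kif3a had 486.8 ± 55.2, 510.7 ± 89.3 and 461.4 ± 44.5 in the nucleus and 488.9 ± 87.1, 435.9 ± 38.4 and 480.7 ± 98.1 in the cord by age.

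Kif1c was the only kinesin-3 motor above the filter, and it was lower in the nucleus, with a difference of -0.22 (SE 0.07, 1.16-fold, adjusted p = 0.0109). Kinesin-3 motors move vesicle precursors at high speed, and Kif1c, which many cell types use, is mutated in a hereditary spastic paraplegia. In the nucleus it read 540.4, 566.6 and 539.4 (6 months), 573.3, 538.1 and 595 (18 months) and 655.9, 657.5 and 562.3 (30 months). The cord read 576.5, 578.6 and 573.7, then 769.5, 698.7 and 900, then 663.7, 593.3 and 784.5. At 18 months the tissues were far apart (-0.47, adjusted p = 0.00497), while at 6 and 30 months the differences were -0.07 and -0.12 and did not pass. Without the 4 arrays that stand apart (below), the difference at the mean of the ages was -0.12 (adjusted p = 0.103). Of the other kinesins, Kifc3, a motor that walks toward the minus end, was higher in the nucleus by 0.23 (SE 0.07, 1.17-fold, adjusted p = 0.0162), with signals of 473.5 to 682.5 there and 426.9 to 554.8 in the cord. Kif2a, which takes microtubules apart at their ends, Kif26b and Kifbp, which binds kinesin motor domains, differed by 0.20, -0.03 and -0.04 without passing the test.

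Dynein-1 moves cargo toward the cell body, and its intermediate chains tie the motor to dynactin. Its 2 intermediate chain genes differed in opposite directions. Dync1i1, the chain made mostly by neurons, read 2488, 2626 and 2586 (6 months), 2403, 2510 and 2551 (18 months) and 2403, 2196 and 2194 (30 months) in the nucleus. In the cord it read 1991, 1967 and 1885, then 2040, 1894 and 1735, then 1957, 2194 and 1734. The 2 tissues only just did not overlap, since the lowest nucleus array and the highest cord array, both at 30 months, round to the same signal of 2194. The difference was 0.34 (SE 0.05, 1.26-fold, adjusted p = 2.97e-05), the smallest adjusted p among the members, and by age it was 0.40 and 0.40 at 6 and 18 months, both past the test, and 0.21 at 30 months (adjusted p = 0.107).

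Dync1i2, the chain that most cells make, went the other way, at -0.20 (SE 0.06, 1.15-fold, adjusted p = 0.0159). Its group means were 2017 ± 146, 1879 ± 174 and 1882 ± 158 in the nucleus and 2350 ± 315, 2039 ± 141 and 2257 ± 208 in the cord by age, and the arrays of the tissues overlapped (1700 to 2171 against 1877 to 2652). The motor subunit itself, Dync1h1, had 2623 ± 155, 2696 ± 226 and 2763 ± 370 in the nucleus and 2824 ± 336, 2514 ± 155 and 2747 ± 262 in the cord, with a difference of 0.00 (95% interval -0.14 to 0.14). Dync1li2, a light intermediate chain that links dynein to cargo adaptors, had 3718 ± 178, 4049 ± 149 and 3919 ± 119 against 3864 ± 75.6, 4122 ± 166 and 3893 ± 190, a difference of -0.02 (95% interval -0.12 to 0.07). Dync1li1 differed by 0.15 without passing the test.

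Of the 4 light chains of the dynein tail, Dynlt3 differed and was lower in the nucleus at all 3 ages. The nucleus read 1712, 1718 and 1613 (6 months), 1677, 1582 and 1617 (18 months) and 1851, 1721 and 1573 (30 months), and the cord 2087, 2021 and 2053, then 2085, 1666 and 2180, then 1963, 2235 and 2118. A single cord array, replicate 2 at 18 months, fell among the nucleus values. The difference was -0.29 (SE 0.06, 1.22-fold, adjusted p = 0.00034), and the call at the mean of the ages held in all 32 alternatives. By age it was -0.29, -0.27 and -0.30, each past the test, but these calls were fragile. All 3 were lost with median centring (adjusted p = 0.0535 to 0.102) and without the mean-variance trend (0.0528 to 0.0664). The 6-month call was lost without any one of the 6 arrays of that age (adjusted p = 0.0601 to 0.118). The 18-month call was lost without any one nucleus array of 6 or 18 months or without cord replicate 1 or 3 of 18 months (0.0554 to 0.194), and the 30-month call without replicate 2 or 3 of either tissue at that age (0.0678 to 0.14). Its relative Dynlt1 differed at 18 months only among the single ages (-0.41, adjusted p = 0.0384) and not at the mean of the ages (-0.07, adjusted p = 0.509). Dynlrb1 differed by -0.02, and Dynll2, a light chain that also serves myosin V, by 0.16 (adjusted p = 0.0941). Dynll2 had 7510 ± 394, 7337 ± 756 and 7844 ± 803 in the nucleus and 7382 ± 210, 6605 ± 1550 and 6478 ± 457 in the cord. Its second probe set gave 0.09 over the ages but -0.29 at 30 months, where the brighter one gave 0.27, and none of these passed the test. At 18 months the second probe set passed, at 0.43 (adjusted p = 0.0209).

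Dynein-2 runs inside cilia rather than axons, and its intermediate chain Dync2i1 had a difference of 0.77 (SE 0.17, 1.70-fold, adjusted p = 0.000946). This gene passed the filter, at a signal of 176, only through the nucleus, with means of 238.2 ± 40.3 there and 145.4 ± 46.4 in the cord (SD, n = 9), so that a gene kept in this way had to differ. Tested among all probe sets without the filter, its adjusted p was 0.00658. Its nucleus arrays read 195.2 to 322.1 (median 226.8) against 80.6 to 201 (median 147.7) in the cord. The tissues overlapped at 18 months (204.3, 195.2 and 241.9 against 142.4, 91.7 and 198.6) and were apart at 6 and 30 months. Dync2h1, the motor subunit, and Dync2li1 differed by 0.13 and 0.17 without passing the test. None of the 5 dynactin subunits passed. Dctn1, the subunit that grips both dynein and the microtubule, came nearest at 0.12 (SE 0.05, adjusted p = 0.0637), with 2362 ± 192, 2460 ± 132 and 2469 ± 113 in the nucleus and 2242 ± 97.3, 2193 ± 171 and 2285 ± 98.3 in the cord. The other subunits lay between -0.11 (Dctn4) and 0.16 (Dctn2).

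Among the tubulins, Tuba4a and Tubb2a were higher and Tubb2b lower in the nucleus, while the probe sets of Tubb5 disagreed. Tuba4a, an alpha tubulin whose RNA encodes no final tyrosine, read 3087, 2829 and 2652 (6 months), 2604, 2507 and 2832 (18 months) and 2712, 2423 and 2616 (30 months) in the nucleus. The cord read 2328, 2311 and 1864, then 2193, 2181 and 2230, then 2135, 2310 and 2261. All 9 nucleus arrays were above all 9 cord arrays, and the difference was 0.29 (SE 0.05, 1.22-fold, adjusted p = 0.000212). By age it was 0.40, 0.26 and 0.21, the first 2 past the test and the last not (adjusted p = 0.131). The 18-month call was lost without any one array of that age, nucleus replicate 2 or 3 of 6 months or cord replicate 1 or 2 of 30 months (adjusted p = 0.0509 to 0.172). Tuba8, the other alpha tubulin, differed by -0.13 (95% interval -0.35 to 0.09).

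Tubb2b, a beta tubulin known for its part in the migration of young neurons, had the most negative difference among the 42 members tested. In the nucleus it read 2946, 3156 and 2612 (6 months), 2909, 2354 and 2135 (18 months) and 2700, 2074 and 3072 (30 months). In the cord it read 3209, 3736 and 3759, then 3792, 3766 and 3737, then 4262, 3387 and 4179. Every cord array stood above every nucleus array, with a difference of -0.51 (SE 0.08, 1.42-fold, adjusted p = 3.18e-05). It passed at 18 months (-0.62, adjusted p = 0.00217) and at 30 months (-0.60, adjusted p = 0.00367) but not at 6 months (-0.30, adjusted p = 0.124). Tubb2a, the close relative whose promoter is printed beside it above, was higher in the nucleus by 0.31 (SE 0.10, 1.24-fold, adjusted p = 0.0127). Its nucleus signals were 7220, 6932 and 6343, then 6449, 6254 and 5129, then 6416, 5359 and 7863, and its cord signals 6487, 3819 and 5395, then 4928, 4667 and 5770, then 4785, 4861 and 6140. These overlapped widely. The lowest of them, 3819, came from the cord array with the highest summed signal of skeletal muscle markers (13100). The highest cord signal, 6487, came from the array with the next highest sum (8330). With the summed muscle signal as a covariate, the Tubb2a difference was 0.22 and did not pass (adjusted p = 0.201). Beta tubulin RNAs are alike in their coding parts, and cross-hybridisation between them was not tested.

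Tubb5, a beta tubulin made by most cell types, passed on its brighter probe set at 0.17 (SE 0.05, 1.13-fold, adjusted p = 0.00666). That probe set had 5347 ± 199, 5044 ± 51.4 and 4923 ± 224 in the nucleus and 4695 ± 495, 4514 ± 152 and 4388 ± 163 in the cord, and the arrays overlapped. The dimmer probe set gave the opposite sign, -0.30 (SE 0.06, adjusted p = 0.000365). It read 809.9, 748.5 and 746.5, then 738.2, 744.2 and 820.4, then 806.8, 644.8 and 815.6 in the nucleus, and 1005, 933.7 and 862.4, then 965.3, 1048 and 1021, then 841, 845.5 and 965.8 in the cord, so that all cord arrays were above all nucleus arrays. With the mean of both probe sets the difference was -0.07 (adjusted p = 0.266), and a direction for Tubb5 is therefore not settled on this array. Tubb3, the neuronal beta tubulin, had 2813 ± 92.5, 2659 ± 350 and 2663 ± 398 in the nucleus and 2555 ± 544, 2308 ± 440 and 2536 ± 374 in the cord, a difference of 0.15 (95% interval -0.04 to 0.34). Tubb4b differed by 0.14 (adjusted p = 0.0927). Gamma tubulin starts new microtubules, and none of its 4 tested genes passed. Tubg1 had 629.9 ± 34.1, 615.8 ± 18.3 and 633 ± 30.5 in the nucleus and 618.8 ± 43.9, 578.2 ± 65.1 and 597.4 ± 49.5 in the cord.

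**Figure D3:**
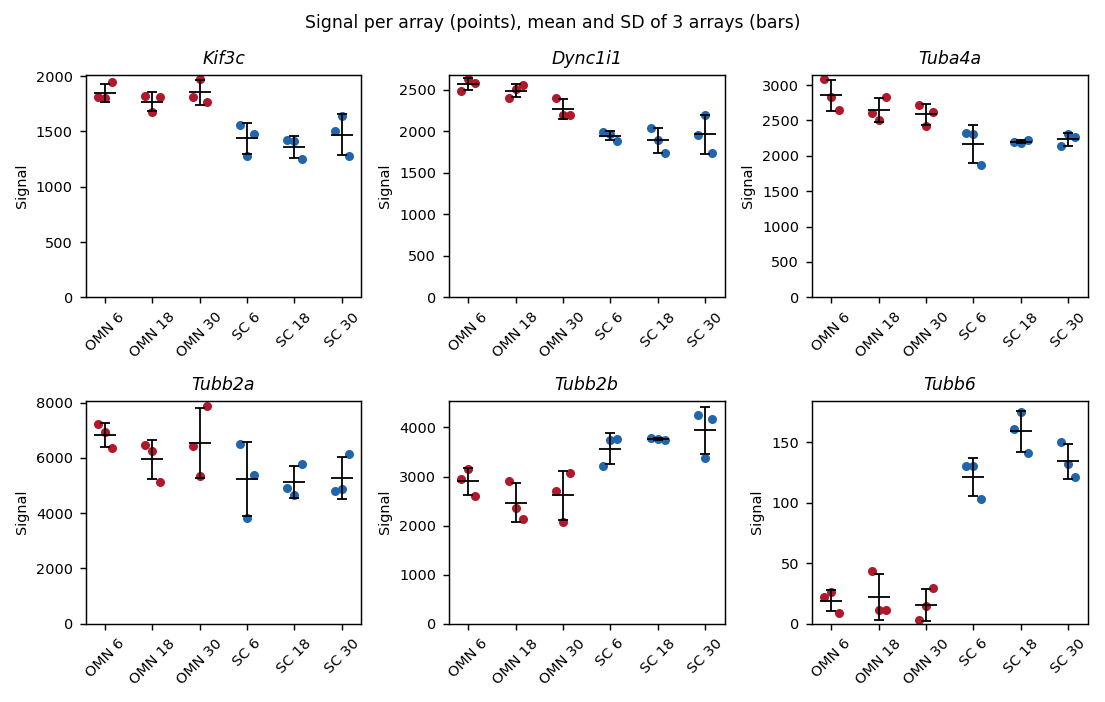
Signal (y axis, linear, from 0) on each array for 6 members by tissue (OMN, oculomotor nucleus, red; SC, spinal cord, blue) and age in months (x axis), with the mean and SD of 3 arrays. Kif3c, Dync1i1 and Tuba4a sit higher in the nucleus at every age, Tubb2b lower, Tubb2a overlaps, and Tubb6 is under the floor of 66.4 on all 9 nucleus arrays.

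Taken at each age alone, 6 members passed at 6 months (26.1% of all probe sets did), 9 at 18 months (26.2%) and 4 at 30 months (21%). The counts at 6 and 30 months include Dync2i1, which passed the filter only through its nucleus signals. Its calls at these ages were lost with no filter (adjusted p = 0.113 and 0.119), and each in 8 of 16 fits without 1 array. Kif3c and Dynlt3 passed at all 3 ages, and 11 members passed at 1 age or more. The shares of all probe sets that did so were not computed, so these counts have no background. Klc2 (0.40, adjusted p = 0.0311) and Dynlt1 passed at 18 months without passing at the mean of the ages. Both calls were lost without any one nucleus array of 18 months or without cord replicate 1 or 3 of that age (adjusted p = 0.0552 to 0.116 for Klc2 and 0.0694 to 0.145 for Dynlt1). All 13 members called at the mean kept the same sign at the 3 ages, but a call on that mean already favours a shared sign. Of the 42, 28 had the same sign at the 3 ages, and the share over all probe sets was not computed. These counts at single ages rest on few arrays. The counts that follow, each without 1 array, are given without the share of all probe sets in the same fit. At 6 months the count was 2 or 3 without any one of the nucleus arrays of that age. It was 4 or 5 at 18 months without any one of the nucleus arrays of that age or without cord replicate 1 or 3, and 1 or 2 at 30 months without nucleus replicate 2 or 3 or cord replicate 3.

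Markers of several cell types differed between the tissues along with these members. Of 5 motor neuron markers matched, 4 passed the filter, and all 4 were lower in the nucleus, with a summed signal of 1130 to 1520 per array against 3150 to 4150 in the cord. General neuronal markers were split, 4 of 9 higher and 4 lower, with sums of 41800 to 48500 against 43000 to 57700. Lower in the nucleus were 5 of 7 oligodendrocyte markers (34500 to 44400 against 36800 to 53600), 5 of 7 astrocyte markers with 1 higher (28300 to 37100 against 32600 to 44400), all 8 microglia markers kept (6810 to 12100 against 9710 to 19400) and the 1 Schwann cell marker kept (1210 to 1450 against 2880 to 5260). The same held for 6 of 8 choroid plexus and meninges markers, with the other 2 higher (7380 to 15000 against 14100 to 23900), both erythrocyte markers (4170 to 9340 against 9490 to 19700), 1 of 2 markers of ependymal cilia (1290 to 1870 against 2050 to 2560) and all 4 of 11 skeletal muscle markers that passed the filter (2660 to 3820 against 3180 to 13100). The ependymal marker that was lower is Tppp3, which is listed again below among the microtubule associated proteins. Each sum covers all markers matched, also those under the filter. Of 8 markers of dividing cells, 2 were at or under the floor on every array and 1 of the 2 kept was lower (1590 to 1860 against 1800 to 2450). Their part in the differences of the motors and tubulins was not tested, except that with the muscle sum as a covariate 8 members passed, Dync1i1, Tubb2b, Kif3c, Tuba4a, Dynlt3, Dync2i1, Kif1c and Kifc3. Ratios of 3′ to 5′ probes, which rise as RNA degrades, were 1.22 to 1.54 for beta-actin in the nucleus and 0.98 to 1.40 in the cord. They were 0.991 to 1.09 against 0.988 to 1.30 for GAPDH and 1.57 to 1.91 against 1.66 to 2.19 for hexokinase, so the 3 controls did not point one way. On the first component of all probe sets within groups (27.1% of the variance), the 4 arrays ranked at one end were taken as standing apart. They were nucleus replicate 3 at 30 months (-16.6) and cord replicates 1, 3 and 3 at 6, 18 and 30 months (-12.1, -13.8 and -14.7). Arrays at the other end were not taken, although nucleus replicate 2 at 30 months scored 14.2 there. The members' median deviation on the 4 arrays taken was 0.01 to 0.05. Without these 4 arrays, a choice made after seeing the data, 13 members passed at the mean of the ages: Kif1c and Kifap3 did not, Dync2i1 was under the filter, and Dync1li1, Dynll2 and Klc1 passed in their place. The shares of all probe sets that passed in this fit and in that with the muscle sum are not given here.

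With age, no member passed the test in either tissue. The comparisons asked how 18 and 30 months differ from the 6-month baseline, and from each other, in each tissue. In the nucleus 0% of all probe sets passed from 6 to 18 months, 0.211% from 6 to 30 and 0.0105% from 18 to 30, and in the cord 0.728%, 0.221% and 0.0105%. A member count of 0 is therefore near the background in every age comparison. At an unadjusted p under 0.05 the members numbered 0, 0 and 1 in the nucleus, where 3.39%, 8.12% and 4.71% of all probe sets reached it, and 3, 1 and 1 in the cord, against 10.3%, 10.7% and 2.14%. The age groups compared did not overlap for 3, 3 and 2 members in the nucleus (14.5%, 13.9% and 8.81% of all probe sets) and for 4, 5 and 1 in the cord (13.6%, 13.1% and 6.46%), in the order given above. Differences of the members ran from -0.35 to 0.45 over the 6 comparisons, and their medians lay between -0.05 and 0.03. The 95% interval of a member reached 0.27 to each side of its estimate at the median. Between 31 and 38 of the 42 intervals lay within 0.5 of 0 on the log2 scale in each comparison. The study itself asked for an average change above 1.7-fold, and the largest fold of a member with age was 1.37 on the probe sets that represent the genes. Other probe sets reached 1.41-fold (Klc1, nucleus, 6 to 30 months) and 1.45-fold (Dynll2, cord, 18 to 30 months), neither past the test.

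**Figure D4:**
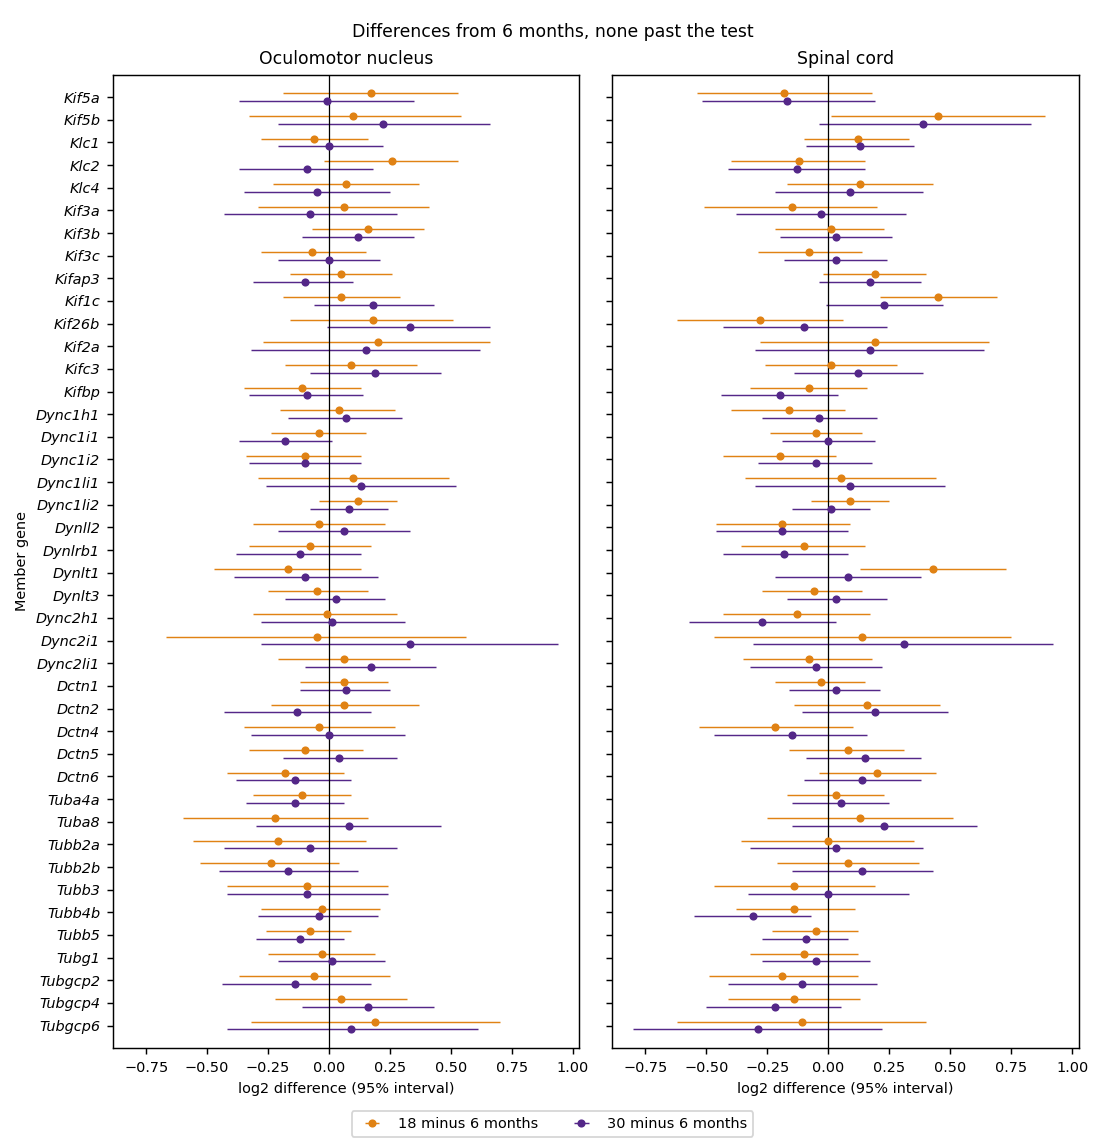
Log2 difference from 6 months with its 95% interval (x axis) for the 42 members tested (y axis), in the oculomotor nucleus (left) and the spinal cord (right), at 18 months (orange) and 30 months (purple). No point passed the test; Kif1c, Dynlt1 and Kif5b at 18 months and Tubb4b at 30 months, all in the cord, have intervals that leave out 0.

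In the cord from 6 to 18 months, the members with the smallest p were Kif1c, Dynlt1, Kif5b, Kifap3 and Dctn6, none past the test. Kif1c went from 576.5, 578.6 and 573.7 to 769.5, 698.7 and 900, and the groups did not overlap. Its difference was 0.45 (SE 0.11, 95% interval 0.21 to 0.69, 1.36-fold) with an adjusted p of 0.0874, the smallest of any member with age. Over 33 other settings its adjusted p ran from 0.0497 to 0.277, and it passed in 1 of them, when the separate 4 arrays were fitted as a block. At 30 months the cord stood at 663.7, 593.3 and 784.5, and the difference from 6 months was 0.23 (adjusted p = 0.493). In the nucleus Kif1c differed by 0.05 from 6 to 18 months and by 0.18 from 6 to 30 (adjusted p = 0.714). Dynlt1 in the cord read 426.4, 317.1 and 358.9 (6 months), 537.1, 436.2 and 506.3 (18 months) and 330.5, 378.4 and 459.1 (30 months). It was 0.43 higher at 18 than at 6 months (adjusted p = 0.231) and -0.35 from 18 to 30 months (adjusted p = 1). Kif5b had 0.45 from 6 to 18 months (adjusted p = 0.468) and 0.39 from 6 to 30 (adjusted p = 0.526), with a single array at 30 months, replicate 3, at 3379 and the other two at 1865 and 1975. Kifap3 and Dctn6 had 0.19 and 0.20 (adjusted p = 0.541 and 0.563).

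From 6 to 30 months in the cord, Tubb4b, a widely made beta tubulin, came first. It read 4666, 4618 and 5405 (6 months), 4331, 4312 and 4698 (18 months) and 4021, 4304 and 3523 (30 months), a difference of -0.31 (SE 0.12, 95% interval -0.55 to -0.07, adjusted p = 0.321). The 3 arrays at 30 months lay below the 3 at 6 months. The next members by p were Kif1c, Dync2h1 (-0.27, adjusted p = 0.522), Kif5b and Kifbp (-0.20, adjusted p = 0.577). In the nucleus from 6 to 30 months, Kif26b had 0.33 (adjusted p = 0.612) and Dync1i1 -0.18 (95% interval -0.37 to 0.01, adjusted p = 0.618). The 30-month signals of Dync1i1 (2403, 2196 and 2194) were all below its 6-month signals (2488, 2626 and 2586). Kifc3 and Tuba4a had 0.19 and -0.14 there, neither past the test.

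From 6 to 18 months in the nucleus, Klc2 (0.26), Tubb2b (-0.24), Dync1li2 (0.12), Dctn6 (-0.18) and Kif3b (0.16) had the smallest p, each with an adjusted p of 1. Klc2, a light chain of kinesin-1, read 2055, 2789 and 2223 (6 months), 2735, 2961 and 2692 (18 months) and 2002, 2554 and 2048 (30 months). Its nucleus signals at 18 months lay above all those at 30 months, a difference of -0.35 (SE 0.13, adjusted p = 0.976). The others with small p from 18 to 30 months were Tuba8 (0.30), Kifap3 (-0.16), Dync1i1 (-0.14) and Dctn2 (-0.20) in the nucleus. In the cord these were, after Dynlt1, Kif1c (-0.22), Tubb4b (-0.18), Dync1i2 (0.14) and Kif26b (0.18), none past the test. A second Kif26b probe set above the filter gave -0.05 in the cord from 18 to 30 months.

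**Figure D5:**
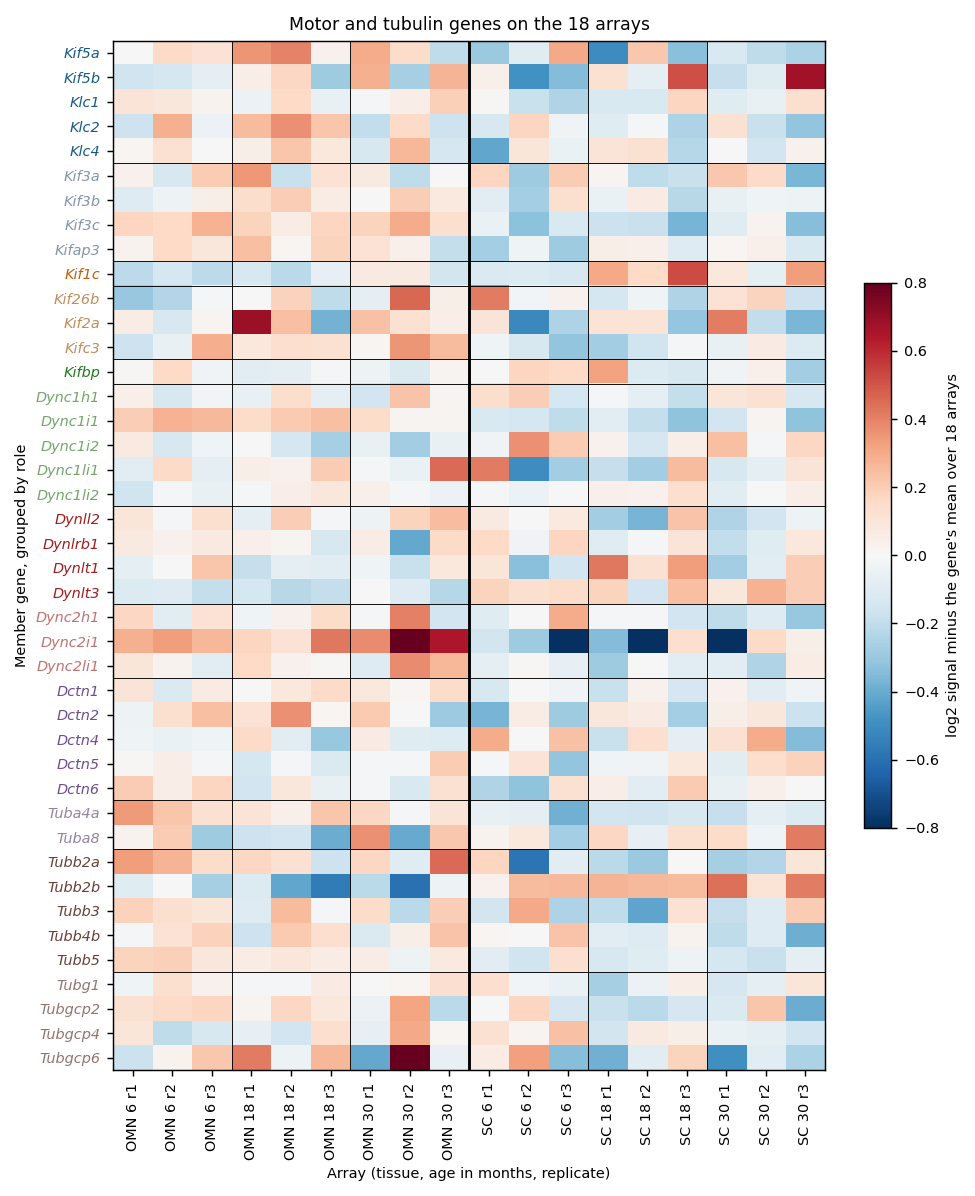
Log2 signal of the 42 members (rows, grouped by role) on the 18 arrays (columns; OMN, oculomotor nucleus; SC, spinal cord; age in months; r, replicate) minus each gene's mean over all arrays; deviations past the ends of the scale take the end colours. Kif3c, Dync1i1 and Tuba4a are mostly red in the nucleus and mostly blue in the cord and Tubb2b is mostly the reverse, while no member passed the test with age.

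The change with age was also compared between the tissues, as the nucleus change minus the cord change. No member and 0% of all probe sets passed, either from 6 to 18 or from 6 to 30 months. At an unadjusted p under 0.05 stood 3 members from 6 to 18 months, where 5.07% of all probe sets did, and 1 member from 6 to 30 months, where 5.47% did. The first 3 were Dynlt1 (-0.60, 95% interval -1.02 to -0.18, adjusted p = 0.911), Kif1c (-0.40, adjusted p = 0.911) and Dctn6 (-0.38, adjusted p = 0.912), and Klc2 (0.38) and Kif26b (0.46) came next. A second Kif26b probe set above the filter gave -0.03 from 6 to 18 months. From 6 to 30 months Tubgcp4, a protein of the gamma tubulin ring, had 0.39 (adjusted p = 0.907), followed by Kifap3 (-0.27), Kif26b (0.42), Dctn6 (-0.28) and Tubb4b (0.27). Such a difference of differences has a wider interval, 0.38 to each side at the median.

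The probe sets of Klc1 and of Dynll2 disagreed by more than 0.5 (log2) with age as well as between tissues. Of the Klc1 probe sets above the filter, from 6 to 30 months in the nucleus, the brightest gave 0.00, the second -0.46 (95% interval -0.77 to -0.16, adjusted p = 0.369) and the dimmest 0.50 (95% interval 0.22 to 0.78, adjusted p = 0.257). On the second, the nucleus read 2067, 2179 and 2317 at 6 months and 2020, 1596 and 1237 at 30 months. On the dimmest it read 324.1, 360.1 and 362.6 against 415.3, 541.3 and 529.1. Both pairs of groups are separate, in opposite directions, and neither probe set passed the test. From 18 to 30 months in the cord, the brighter probe set of Dynll2 gave -0.01 and the dimmer 0.54 (95% interval 0.26 to 0.82, unadjusted p = 0.000657, adjusted p = 1). The dimmer one read 957.4, 1098 and 1441 at 18 months and 1614, 1585 and 1819 at 30 months, without overlap. In the nucleus change minus the cord change from 6 to 30 months, the pair gave 0.25 and -0.40 (adjusted p = 0.923 and 0.907). Of the members, 8 had more than 1 probe set above the filter.

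Partners of these motors outside the member list were taken from 4 lists, and their shares can be read against the 47.2% of all probe sets that passed between the tissues. Of 13 kinesin adaptors and mitochondrial linkers tested, 5 were higher and 2 lower in the nucleus. Hap1, which joins huntingtin to kinesin and dynactin, led with 1.11 (SE 0.07, 2.15-fold, adjusted p = 2.35e-10), at mean signals of 4070 against 1900. Rhot2, the mitochondrial anchor also called Miro, had 0.69 (adjusted p = 8.73e-09), Madd, which links Kif1 motors to vesicles, 0.61 (adjusted p = 6.59e-07) and Clstn1, a cargo of kinesin light chains, 0.33 (adjusted p = 6.49e-05). Of 24 microtubule associated proteins tested, 7 were higher and 7 lower. Dclk1, a kinase that binds microtubules, had -1.35 (SE 0.07, 2.54-fold, adjusted p = 6.49e-12) at 762 against 1950, Crmp1 1.03 (adjusted p = 6.8e-10), Tppp3 -0.79 (adjusted p = 2.25e-08) and the end-binding Mapre2 -0.37 (adjusted p = 3.62e-05).

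Of 10 further dynactin subunits and dynein regulators, 1 was higher and 2 lower: Bicdl1, a dynein adaptor, at 0.53 (adjusted p = 1.43e-05), the capping protein Capza2 at -0.24 (adjusted p = 0.000654) and the actin-related Actr1b at -0.19 (adjusted p = 0.0138). Capzb, the next, had -0.14 and did not pass. Of 13 genes of tubulin folding and modification, 1 was higher and 2 lower. Hdac6, a deacetylase of alpha tubulin, had 0.64 (adjusted p = 4.63e-05), Sirt2, which removes the same mark, -0.47 (adjusted p = 3.96e-07), and Ttl, which restores the final tyrosine of alpha tubulin, -0.53 (adjusted p = 3.53e-06), while the folding cofactor Tbca had 0.12 and did not pass. None of the genes of the 4 lists passed in an age comparison. The nearest were Dclk1 in the cord, 0.45 from 6 to 18 and 0.50 from 6 to 30 months (adjusted p = 0.0836 and 0.0828), and Sirt2 in the cord, -0.32 and -0.34 (adjusted p = 0.128 and 0.138). Rhot1 had -0.43 from 6 to 18 months in the cord (adjusted p = 0.286), and in the nucleus from 6 to 30 months Snph, a mitochondrial docking protein, had 0.27, Bicdl1 0.36 and the dynein regulator Pafah1b1 -0.32, none past the test.

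The 13 members under the filter included all 6 mitotic kinesins, which divide chromosomes and are hardly made in adult nervous tissue: Kif15, Kif18b, Kif20a, Kif22, Kif2c and Kifc1. Kif18b stood at or under the floor of 66.4 on all 18 arrays, and Kif22 on none, with 83.1 to 168 in the nucleus and 69.3 to 156 in the cord. Also under the filter were Kif12, Kif13a, Kif1b, Kif6, Klc3 and Tubgcp3. Kif1b, a kinesin-3 motor of synaptic vesicle precursors, was at or under the floor on every array of this probe set (11.3 to 66 in the nucleus, 9.4 to 56.9 in the cord), and the 3 probe sets it shares with other genes were not used. Klc3 read 44.2 to 104 in the nucleus and 37.9 to 100 in the cord.

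The thirteenth, Tubb6, a beta tubulin of many cell types outside neurons, differed between the tissues. It read 22.1, 26.2 and 9.1 (6 months), 43.7, 11.4 and 11.2 (18 months) and 3.2, 14.4 and 29.6 (30 months) in the nucleus, all under the floor. In the cord it read 130.3, 130.4 and 103.2, then 160.7, 174.8 and 141.6, then 150.2, 131.7 and 121.6, all above it. Set against the floor, Tubb6 was at least 2.06-fold lower in the nucleus. Its adjusted p was 1.58e-08 when all probe sets were tested without the filter, and Tubb6 also passed at each age that way. In that fit all 9 nucleus arrays are set to the same floor and add no spread, so these adjusted p may be too small. No other member under the filter passed in any of the 12 comparisons without it.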

How the data were processed

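The deposited values are signal intensity per probe set, computed with Microarray Suite 5.0 per the submitters' processing notes, and their units and scale were checked on the values. The 57 control probe sets were left out of 15923. Each array was scaled to 1 common 2% trimmed mean, values under the pooled 20th percentile (a signal of 66.4) were set to that floor, and log2 was taken. The 9482 probe sets with a mean log2 above the pooled 40th percentile (7.46, a signal of 176) were tested with limma 3.58.1 (lmFit, contrasts.fit and eBayes with trend) in R 4.3.3. The 6 group means were fitted over all 18 arrays with 12 residual degrees of freedom, 2-sided, with Benjamini-Hochberg adjustment over all probe sets tested and a call at an adjusted p under 0.05. Signals in the text are scaled and not floored. The number of arrays limits the precision. Median signals were 252 to 275, and 18 to 21% of probe sets were at or under the floor on each array. Gene names came from the platform annotation. The labels give 3 replicates a group where the series' design text gives 4. The fit was tested on simulated data.

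Named were the members past the test (up to 12 in each direction), the 5 with the smallest p where fewer than 3 passed, a fixed list of main motor and tubulin genes, genes whose probe sets disagreed by more than 0.5, and the leading genes of 4 pathway lists (up to 4 between tissues, up to 2 with age). The members and lists were chosen with earlier results of these data known. Alternatives changed the scaling, floor, filter, probe set rule, model, block, muscle covariate and each single array. Protein sequences were not used here.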

Additional observations from a re-analysis of the deposited data

How the results depend on the processing

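In the comparison of tissues at the mean of the ages, Dync1i1, Tubb2b, Kif3c, Tuba4a, Dynlt3 and Kifc3 kept direction and call in all 32 alternatives. Quantile normalization left 5 members called between the tissues at 18 months. With the muscle markers as a covariate 8 were called at the mean of the ages and 3 at 6 months. Without the 4 arrays that stand apart, added after seeing the data, 1 was called at 30 months. With these arrays as a block, 1 member (Kif1c) was called in the cord from 6 to 18 months. Tubb5 reversed to -0.07 with the mean of its probe sets, which is how that value is built. The cause of the other changes was not tested. Leaving out 1 array gave 12 to 14 calls at the mean of the ages, and for single ages 2 to 6 (6 months), 4 to 9 (18 months) and 1 to 6 (30 months), and 0 in every age comparison and interaction. Kif5a lost its call with no filter (adjusted p = 0.064), and Kifap3 with quantile normalization (adjusted p = 0.123) and without the trend (adjusted p = 0.0599). The arrays share replicate numbers, and no label ties a number to an animal. Deviations of same-numbered arrays correlated from -0.26 to 0.50, over 0.1 in 8 of 45 pairs. Within an age they correlated from -0.06 to 0.50, over 0.1 in 3 of 9 nucleus and cord pairs, which are the 3 pairs of 30 months (0.12, 0.23 and 0.50). Not every pair was over 0.1, so the numbers were not used as pairs, and shared animals remain possible. The replicate block across all groups gave 13 calls at the mean of the ages and 5, 7 and 3 at single ages, and 0 with age. The replicate block of the same age and number gave 15, 7, 9 and 4, and 0 with age. Member counts in these alternatives are given without the share of all probe sets called in the same fit, so they have no background.

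With 3 arrays of pooled RNA a group, each member's age estimate carries a 95% interval of about 0.27 to each side, and whether the 2 tissues came from the same animals was not given in the sources used here. Signals near the floor have no order. Probe sets can read some transcript forms of a gene and not others.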
